A study of Rattus norvegicus with 2 samples.

Results

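The cytosolic heat shock chaperones of the rat dorsal root ganglion (DRG) are described here through 10 genes, Hspa1b, Hspa8, Hsph1, Dnajb1, Dnaja1, Hspb1, Hsp90aa1, Hsp90ab1, Cryab and Bag3. They were taken by symbol from 32623 gene identifiers, and all 10 were found. Single cells of lumbar DRGs of both sides were profiled by droplet sequencing of mRNA 3′ ends, in which unique molecular identifiers (UMIs) count captured molecules. The control library pooled ganglia of 5 SD rats that received citrate buffer. The DPN library pooled ganglia of 5 SD rats with diabetic peripheral neuropathy, 8 weeks after 1 intraperitoneal injection of 65 mg/kg streptozotocin (STZ), a toxin of the insulin-producing beta cells. All rats were males, healthy and 8 weeks old when purchased, and only STZ rats with high blood glucose were used. The ganglia of both conditions were minced and digested at 37 °C with collagenase for 40 min and trypsin for 20 min before dead cells were removed, so each library also carries whatever the preparation did to the cells.

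Heat shock proteins keep other proteins folded. Hsp70 chaperones bind exposed hydrophobic stretches of unfolded proteins in cycles of ATP hydrolysis, J-domain proteins deliver the clients, nucleotide exchange factors release them, and Hsp90 finishes the folding of kinases and receptors. Small heat shock proteins hold unfolded proteins without ATP. The stress-inducible genes are switched on by heat shock factor 1 (HSF1), which binds repeats of GAA and TTC in promoters, and in the ganglion they are known to respond to injury and to the handling of tissue.

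The cells were taken through 6 gates, each defined by marker UMIs per 10000 UMIs of a cell, among cells with at least 1000 UMIs and under 20% of UMIs from mitochondrial (Mt-) genes. The gates were satellite glia (SGCs, Fabp7 and Tyrp1), myelinating Schwann cells (SCs, Prx, Mag and Cldn19), endothelium (Cldn5, Flt1 and Cdh5), smooth muscle (Myh11), fibroblasts (Lum) and macrophages (C1qa, C1qb and C1qc). In the control library 5977 cells passed a gate and in the DPN library 5730, of which 76 and 124 passed more than 1. From 173 cells (control macrophages) to 4135 cells (control SGCs) stood behind a value. Median depth was 13783 UMIs for control SGCs, 11145 UMIs for DPN SGCs and between 3655 and 10377 UMIs in the other gates, lower in DPN in each. The libraries shared 38 barcode sequences, 11 of them among gated cells. Of markers the gates did not use, all detected ones were higher in their own gate than in the other gates together in both libraries, except Glul of SGCs, a glutamine synthetase gene, which was lower. Pecam1 and Col1a2 had no symbol in the counts.

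Levels are given as CPM, the standard scaling of a gene's UMIs to the summed UMIs of all cells of a gate and library. Ratios are DPN over control. In parentheses after a ratio stands its exact 95% interval, computed from summed UMI counts alone. The interval covers counting error, and not the spread between cells, the spread between rats or the preparation. Each condition was a single pooled library, so the conditions could not be tested against each other and no p-value is given. A gene is said to have fallen or risen only where its ratio was at most 0.667 or at least 1.5 and the interval left out 1.

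RefSeq promoter windows of assembly GRCr8, with 250 bases before and 50 bases after the annotated start, were found for 7 of the 10 genes. Hspa1b, Cryab and Hsp90aa1 had no entry. Heat shock elements were searched as GAA and TTC, in either order, with 2 bases of any kind between them, a form that reads the same on both strands. The longer form had 3 such units in alternation with the same spacing, and each long match contains short ones. The short form lay in 6 of the 7 windows and in 15.9% of all 33469 windows. The longer form lay in 3 of the 7, Hspa8, Hsph1 and Dnaja1, and in 0.798% of all windows. The 4 windows below, 5′ to 3′ with matches in capitals, show a constitutive gene with long elements (Hspa8), inducible genes with a long element (Hsph1) and with short ones (Dnajb1), and the window without a match (Hsp90ab1).
Hspa8 (chr8:50080264-50080563, plus strand): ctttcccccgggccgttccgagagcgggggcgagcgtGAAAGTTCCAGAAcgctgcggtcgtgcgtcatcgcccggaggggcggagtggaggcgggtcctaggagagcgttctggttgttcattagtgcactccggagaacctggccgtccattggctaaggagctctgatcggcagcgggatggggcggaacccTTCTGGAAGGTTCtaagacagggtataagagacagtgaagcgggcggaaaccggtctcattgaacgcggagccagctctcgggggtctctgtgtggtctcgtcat
Hsph1 (chr12:10427118-10427417, plus strand): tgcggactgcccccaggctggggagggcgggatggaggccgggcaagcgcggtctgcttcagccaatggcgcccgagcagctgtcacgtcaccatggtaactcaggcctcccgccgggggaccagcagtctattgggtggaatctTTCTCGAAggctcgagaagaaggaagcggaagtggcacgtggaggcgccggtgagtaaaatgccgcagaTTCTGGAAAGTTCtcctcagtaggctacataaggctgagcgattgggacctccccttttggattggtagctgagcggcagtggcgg
Dnajb1 (chr19:41431092-41431391, minus strand): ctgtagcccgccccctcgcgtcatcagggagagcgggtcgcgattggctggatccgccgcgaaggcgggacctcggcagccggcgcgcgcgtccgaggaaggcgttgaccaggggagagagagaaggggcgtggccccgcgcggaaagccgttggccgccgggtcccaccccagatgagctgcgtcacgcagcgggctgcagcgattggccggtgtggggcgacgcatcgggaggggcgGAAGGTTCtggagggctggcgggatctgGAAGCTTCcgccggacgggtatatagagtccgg
Hsp90ab1 (chr9:22930173-22930472, plus strand): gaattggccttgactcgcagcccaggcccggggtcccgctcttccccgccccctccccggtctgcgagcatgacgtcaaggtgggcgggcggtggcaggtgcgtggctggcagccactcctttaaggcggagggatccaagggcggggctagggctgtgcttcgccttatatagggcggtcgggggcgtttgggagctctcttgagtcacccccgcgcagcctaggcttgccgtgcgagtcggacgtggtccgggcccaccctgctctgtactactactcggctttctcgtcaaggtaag

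In Hspa8 the long elements began 213 and 55 bases before the start, in Hsph1 36 bases before it. The matches of Dnajb1 began 11 bases before and at base 18 after the start. A match is a description of letters and says nothing about occupancy in these cells.

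Heat shock chaperone transcripts were lower in the DPN library in most gates, and Hspa1b, the stress-inducible Hsp70, was lower in every one. Of the 9 genes with counts, 2 fell in SGCs (Hspa1b and Cryab), 1 in myelinating SCs (Hspa1b), 3 in endothelium (Hspa1b, Dnajb1 and Cryab), 5 in smooth muscle (Hspa1b, Hsph1, Dnajb1, Cryab and Bag3), 1 in fibroblasts (Hspa1b) and 3 in macrophages (Hspa1b, Hspa8 and Dnaja1). Among all genes with at least 200 UMIs, 2.11% fell in SGCs, 5.74% in myelinating SCs, 4.01% in endothelium, 3.79% in smooth muscle, 3.47% in fibroblasts and 4.18% in macrophages. None of the 9 rose in any gate, while 22.8% of all genes rose in SGCs, 15.2% in myelinating SCs, 17% in endothelium, 15% in smooth muscle, 22.5% in fibroblasts and 14.5% in macrophages. These shares depended on the genes tested. After thinning to 1000 UMIs per cell, with fewer genes tested, 3.55% (SGCs) to 8.75% (macrophages) fell. Those that rose were then 13.3% in SGCs and between 6.96% (smooth muscle) and 13.6% (endothelium) in the other gates. The count of endothelium includes Cryab, which is not read as a change in those cells (given with its shares of cells) and whose call was lost after thinning (0.750) and with equal weight of cells (0.779). That of smooth muscle was 3 after thinning and 3 with further mitochondrial genes counted as such. Over the 54 values of 9 genes in 6 gates, 15 were called as lower, 40 had an interval wholly under 1, 9 had one wholly over 1, and 5 intervals held 1. Intervals were not counted in this way over all genes, and with many UMIs a small shift leaves out 1. The interval counts are therefore not read as a result about the 9 genes.

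The median log2 ratio of the 9 genes was −0.28 in SGCs against 0.15 over all genes tested, and −0.33 against −0.013 in myelinating SCs. In the vessel wall it was −0.46 against 0.048 in endothelium and −0.63 against 0.0078 in smooth muscle. Macrophages stood at −0.52 against −0.012. Fibroblasts had a median over 0 and close to that of all genes, with 0.11 against 0.098. The median over all genes depended on which genes were tested. In SGCs it was 0.24 with a minimum of 20 UMIs and −0.016 over the 3633 genes tested after thinning to 1000 UMIs per cell. After thinning it was −0.21 in myelinating SCs, −0.012 in endothelium, −0.14 in smooth muscle, −0.096 in fibroblasts and −0.18 in macrophages. The 9 genes were not set against genes of like level, so the size of the gap is uncertain. Relative to the shift of all genes with at least 200 UMIs the SGC values were lower still. With median-ratio scaling, which sets that shift to 0, the ratios just over 1 in SGCs became 0.935 for Hsph1, 0.906 for Dnaja1 and 0.918 for Hsp90ab1. Hspb1 of fibroblasts became 0.979. The same scaling changed the genes called as lower and higher from 203 and 2188 to 522 and 1592 in SGCs and from 85 and 552 to 168 and 442 in fibroblasts.

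Markers of neurons moved with the library. None of the 8 neuron markers was at 0 in any gate, and their summed level was higher in DPN in 6 of 6, between 182 and 357 CPM in control cells and between 325 and 873 CPM in DPN cells. The 3 red blood cell markers stood at 6.34 CPM in control and 512 CPM in DPN myelinating SCs, but at 34.9 CPM in control and 5.57 CPM in DPN SGCs. In smooth muscle, which held the most falls, the 4 neutrophil markers went from 229 to 3.18 CPM and the 6 markers of myelinating SCs from 753 to 1380 CPM. The summed level of the gates' own markers that the gating did not use moved too, from 2489.5 to 1472 CPM in SGCs, 12897 to 8731 CPM in smooth muscle, 59849 to 50994 CPM in myelinating SCs, 34193 to 25730 CPM in fibroblasts and 5437 to 4712 CPM in macrophages, and in endothelium from 2469 to 2543 CPM. Single markers did not all move with these sums. Most of the SGC sum was Ptgds, which went from 1728 to 822 CPM. Slc1a3 (65.9 to 101 CPM), Kcnj10 (4.02 to 5.78 CPM) and Glul (144 to 201 CPM) of SGCs were higher in DPN. So were Drp2 of myelinating SCs, Mylk of smooth muscle, Dpt of fibroblasts, and Mrc1 and Csf1r of macrophages. In endothelium Emcn, Tie1 and Egfl7 were lower. The part of these markers in the chaperone ratios was not tested.

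**Figure D1:**
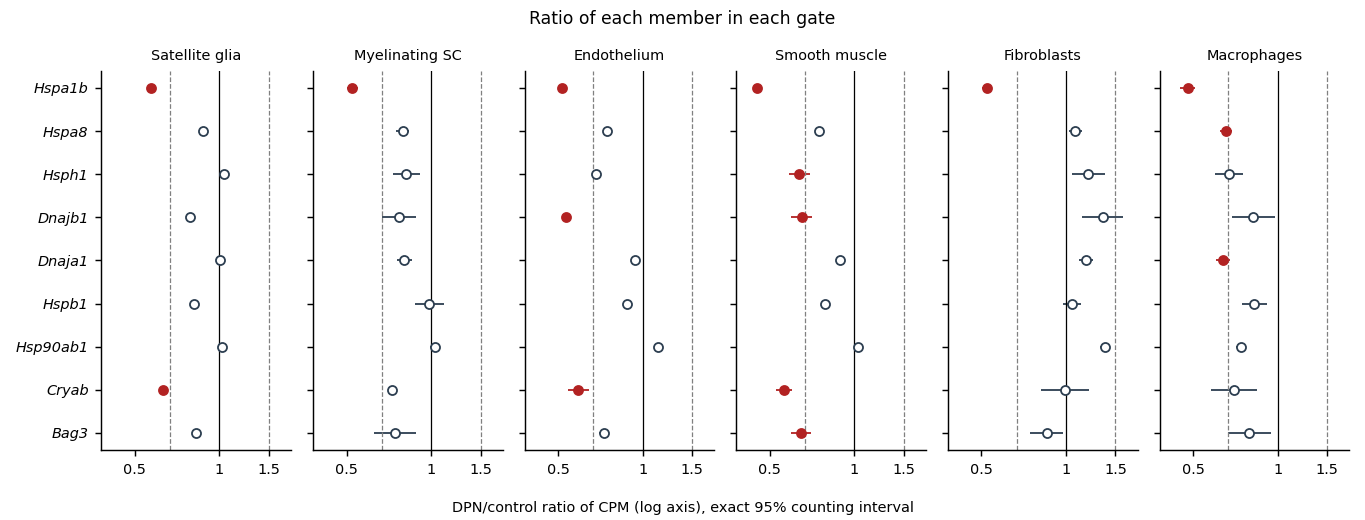
Ratio of CPM, DPN over control, on a log axis for 9 genes in 6 gates. Points are ratios with exact 95% counting intervals, filled red where the gene was called as lower, and dashed lines mark 0.667 and 1.5. Hspa1b lies left of the lower line in all 6 gates, while Hsp90ab1 lies between the lines in all 6.

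Hspa1b encodes the inducible Hsp70 that is nearly silent in unstressed tissue and rises steeply when proteins unfold. In SGCs it stood at 1789 CPM in control cells and 1021 CPM in DPN cells. Myelinating SCs had 2431 CPM in control cells and 1273 CPM in DPN cells. Endothelium held the most, 9649.6 CPM in control cells and 4988 CPM in DPN cells. The order of the gates was the same in both libraries. Smooth muscle followed endothelium with 7426 CPM in control cells and 3349 CPM in DPN cells, fibroblasts with 3126 CPM in control cells and 1634 CPM in DPN cells and macrophages with 2778 CPM in control cells and 1329 CPM in DPN cells. Neighbouring gates in this order differed beyond counting error, except macrophages and myelinating SCs of the DPN library, whose intervals overlapped. The highest gate exceeded the lowest 5.39-fold in control cells and 4.89-fold in DPN cells.

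The ratio of Hspa1b was 0.451 (0.440 to 0.462) in smooth muscle, the lowest of the 6. Macrophages had 0.478 (0.450 to 0.509), endothelium 0.517 (0.512 to 0.522), fibroblasts 0.523 (0.501 to 0.545) and myelinating SCs 0.524 (0.501 to 0.548). SGCs had the ratio nearest to 1, 0.571 (0.564 to 0.578). The intervals of smooth muscle and SGCs did not overlap, although a difference between cell types over rats could not be tested. The identity of the gene is uncertain, for Hspa1a and Hspa1b are near-identical copies, the RefSeq table lists them as separate genes but gives Hspa1b as a synonym of Hspa1a too, and Hspa1a has no symbol in the counts.

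Quartiles and median over cells lay lower in DPN in each of the 6 gates. Median UMIs of Hspa1b per 10000 UMIs of a cell in endothelium were 72.0 (quartiles 25.8 and 124) in control cells and 35.8 (15.9 and 64.3) in DPN cells. In smooth muscle they were 60.6 (quartiles 27.6 and 104) in control cells and 20.3 (8.20 and 44.9) in DPN cells. SGCs had 10.9 (quartiles 4.28 and 24.2) in control cells and 5.81 (2.21 and 13.7) in DPN cells. The control cells at the lower quartile of smooth muscle thus exceeded the median DPN cell. In macrophages the UMIs were also held by fewer cells, since the 10% of cells with the most Hspa1b UMIs carried 39.5% of them in control cells and 59.1% in DPN cells.

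**Figure D2:**
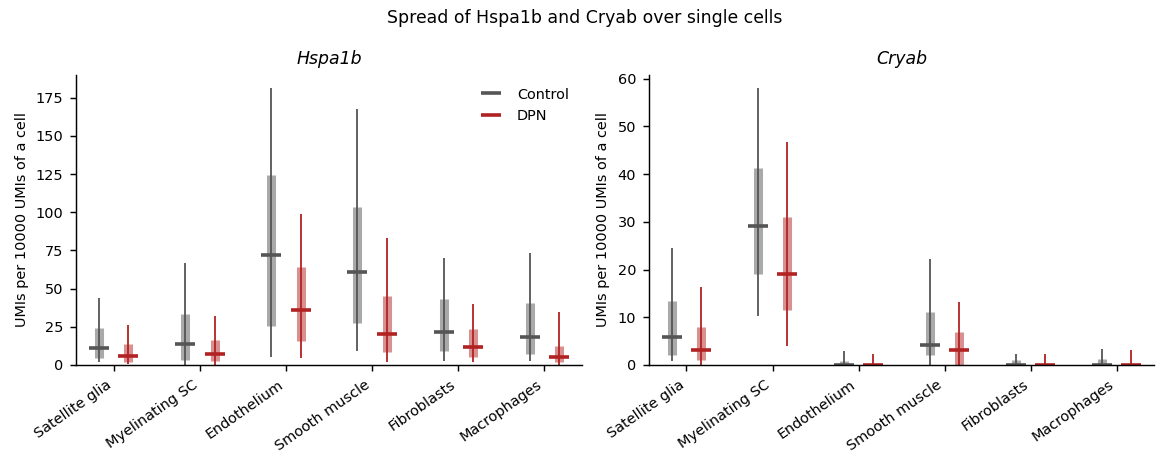
UMIs of Hspa1b (left) and Cryab (right) per 10000 UMIs of a cell, by gate, in the control (grey) and DPN (red) library. Ticks are medians over cells, thick bars quartiles and thin lines the 10th to 90th percentiles. The Hspa1b medians of endothelium lie at 72.0 and 35.8, and Cryab is near 0 in endothelium, fibroblasts and macrophages.

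After every cell was thinned to 1000 UMIs, which left out no gated cell, at least 1 UMI of Hspa1b was found in 76.3% of control cells (exact binomial 95% interval 69.3% to 82.4%) and 47.9% of DPN cells (41.5% to 54.4%) among macrophages. Among SGCs the shares were 63.3% of control cells (exact binomial 95% interval 61.8% to 64.8%) and 49.0% of DPN cells (47.2% to 50.8%). The difference was smallest in endothelium, 88.2% and 84.8%, although the ratio of levels there was 0.517. At a high level a share can stay high while the level is lower, so the shares do not order the gates by change. Without thinning, the shares of macrophages were 95.4% and 79.8%. None of the 6 gates serves as a type without the gene, and part of these UMIs may come from free RNA of the suspension.

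Hspa1b was 41.4% of the UMIs of the 10 genes in control endothelium and 28.8% in DPN endothelium. In fibroblasts its share went from 32.9% to 17.6%, and in SGCs from 21.7% to 14.8%. The summed UMIs of all members had a ratio of 0.742 in endothelium, and without Hspa1b of 0.900 (0.894 to 0.907). In macrophages the sum without Hspa1b still stood at 0.700 (0.684 to 0.718). In fibroblasts it was over 1, at 1.20 (1.17 to 1.23).

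**Figure D3:**
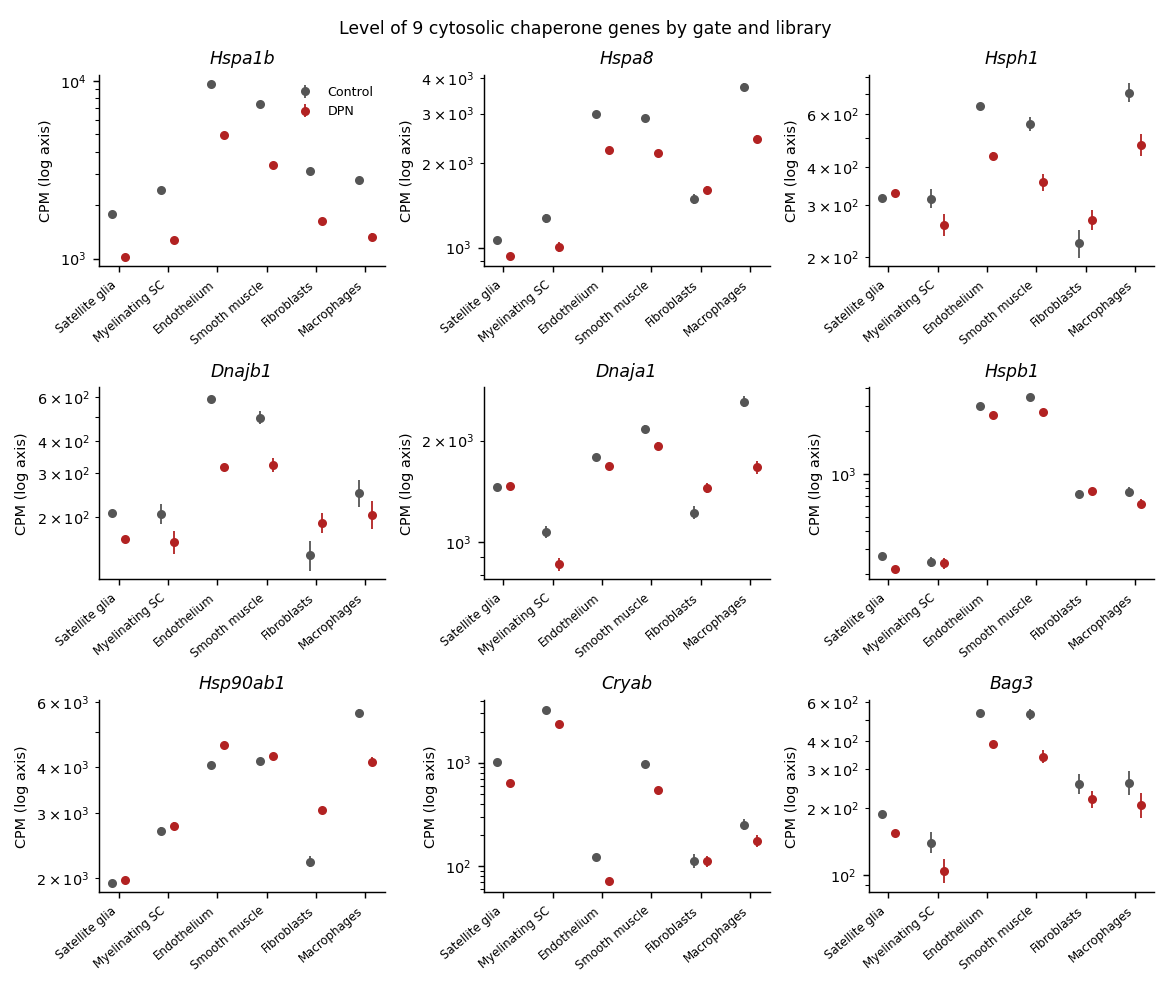
Level in CPM (log axis, a separate scale for each gene) of the 9 genes with counts in 6 gates, in the control (grey) and DPN (red) library, with exact Poisson 95% intervals as bars, often smaller than the points. Hspa1b is highest in endothelium at 9649.6 and 4988 CPM, and Cryab in myelinating SC at 3239 and 2357 CPM.

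Hspa8 encodes Hsc70, the constitutive cytosolic Hsp70 of protein folding, clathrin uncoating and chaperone-mediated autophagy. It fell in macrophages, from 3724 to 2435 CPM, with a ratio of 0.654 (0.623 to 0.686). In endothelium it stood at 2978 CPM in control cells and 2221 CPM in DPN cells, with a ratio of 0.746 (0.734 to 0.758). Smooth muscle was alike with 0.751 (0.725 to 0.777), and intervals of myelinating SCs, 0.793 (0.751 to 0.837), and SGCs, 0.871 (0.859 to 0.883), lay under 1 too without reaching 1.5-fold. Fibroblasts went from 1486 to 1601 CPM, with a ratio of 1.08 (1.02 to 1.14). On the log2 scale this was 0.11, close to the median of 0.098 over all genes tested in fibroblasts. Macrophages had the highest level and SGCs the lowest in both libraries.

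Hsph1 encodes Hsp110, a nucleotide exchange factor of Hsp70. It fell in smooth muscle, from 559 to 356 CPM, with a ratio of 0.637 (0.586 to 0.693). Macrophages, with 0.671 (0.6003 to 0.750), and endothelium, with 0.684 (0.661 to 0.709), stood close to the threshold but did not pass it. In SGCs the level was 316 CPM in control cells and 328 CPM in DPN cells, with a ratio of 1.04 (1.01 to 1.06). That of fibroblasts was 1.20 (1.05 to 1.37). The highest gate exceeded the lowest 3.18-fold in control cells and 1.85-fold in DPN cells. The direction in fibroblasts turned after thinning, to 0.943.

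Dnajb1 encodes Hsp40, the J-domain partner that stimulates inducible Hsp70. It fell in endothelium, from 590.2 to 316 CPM, with a ratio of 0.535 (0.514 to 0.556). In smooth muscle it fell from 497 to 322 CPM, with a ratio of 0.648 (0.594 to 0.708), a call lost under 3 of 11 alternatives, at 0.677 with cells of exactly 1 gate, 0.672 with further mitochondrial genes counted as such and 0.745 after thinning. The control had more Dnajb1 in endothelium than in smooth muscle, while in the DPN library the intervals of these gates overlapped. SGCs had a ratio of 0.784 (0.759 to 0.809), myelinating SCs 0.771 (0.671 to 0.884) and macrophages 0.820 (0.685 to 0.981). Fibroblasts were at 141 CPM in control cells and 191 CPM in DPN cells, with a ratio of 1.35 (1.14 to 1.59).

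Dnaja1 encodes a farnesylated J-domain protein that works with Hsc70. It fell in macrophages, from 2610.1 to 1663 CPM, with a ratio of 0.637 (0.601 to 0.676). The interval in SGCs held 1, with 1459.6 CPM in control cells and 1467 CPM in DPN cells and a ratio of 1.01 (0.994 to 1.02). Endothelium, at 0.939 (0.921 to 0.957), and smooth muscle, at 0.891 (0.857 to 0.926), lay nearer to 1 than for Dnajb1 in the same cells, and that of endothelium was 1.05 after thinning. Fibroblasts had 1.18 (1.12 to 1.25), and myelinating SCs, lowest of the 6 gates in both libraries, 0.803 (0.757 to 0.852).

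Bag3 encodes a nucleotide exchange factor that hands clients of Hsp70 and small heat shock proteins to autophagy. It fell in smooth muscle, from 528 to 341 CPM, with a ratio of 0.646 (0.593 to 0.704). In endothelium it stood at 535 CPM in control cells and 389 CPM in DPN cells, with a ratio of 0.726 (0.699 to 0.754). The interval lay under 1 in each of the 6 gates, with ratios of 0.746 in myelinating SCs, 0.792 in macrophages, 0.825 in SGCs and 0.852 in fibroblasts. The direction in myelinating SCs turned with a mitochondrial limit of 10%, to 1.36, and the ratio of fibroblasts was 1.002 after thinning. Endothelium and smooth muscle had the highest levels in both libraries and myelinating SCs the lowest.

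Hsp90ab1 encodes the constitutive Hsp90 beta. It did not fall or rise in any gate. SGCs were at 1943 CPM in control cells and 1979 CPM in DPN cells, with a ratio of 1.02 (1.01 to 1.03). Myelinating SCs had a ratio of 1.03 (0.994 to 1.07), smooth muscle 1.03 (1.01 to 1.06) and endothelium 1.13 (1.12 to 1.15). The extremes were fibroblasts, which went from 2213 to 3051 CPM with a ratio of 1.38 (1.32 to 1.44), and macrophages, which went from 5614 to 4144 CPM with 0.738 (0.710 to 0.767). In endothelium, where Hspa1b and Dnajb1 fell, Hsp90ab1 thus had an interval over 1.

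Hsp90aa1, the inducible Hsp90 alpha, had 5 UMIs over all barcodes of both libraries, of which SGCs and endothelium of the control held 1 each. No level or ratio of the gene is read from so few counts, and how the counting treated its identifier was not tested.

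Hspb1 encodes Hsp27, a small heat shock protein that caps actin filaments. It marked the vessel wall, with 3443 CPM in control cells and 2708 CPM in DPN cells in smooth muscle and 2979.6 CPM in control cells and 2609 CPM in DPN cells in endothelium. SGCs had 268 CPM in control cells and 217 CPM in DPN cells. Highest and lowest gate differed 14.2-fold in control cells and 12.5-fold in DPN cells. Hspb1 passed the threshold in none of the gates, with ratios of 0.787 (0.762 to 0.812) in smooth muscle, 0.811 (0.789 to 0.834) in SGCs, 0.826 (0.746 to 0.914) in macrophages and 0.876 (0.862 to 0.889) in endothelium. Intervals held 1 in myelinating SCs, 0.985 (0.875 to 1.11), and fibroblasts, 1.05 (0.972 to 1.13). In myelinating SCs this depended on the mitochondrial limit, for with a limit of 10%, which left few of these cells, the ratio was 2.04. In SGCs the direction turned with the same limit, to 1.18, and the ratio was 1.66 (1.17 to 2.35) among cells with under 5% mitochondrial UMIs and 1.08 (0.939 to 1.23) at 5% to 10%.

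Cryab encodes alpha B-crystallin, a small heat shock protein of lens, muscle and glia. Myelinating SCs had by far the most, 3239 CPM in control cells and 2357 CPM in DPN cells, with a ratio of 0.728 (0.703 to 0.753) that did not reach the threshold. In SGCs it fell from 1006 to 635 CPM, with a ratio of 0.632 (0.622 to 0.641). Smooth muscle had a like level, and it fell from 973 to 549 CPM, with a ratio of 0.564 (0.528 to 0.602). In both libraries the order ran from myelinating SCs over SGCs and smooth muscle to macrophages, with SGCs and smooth muscle within counting error of each other in the control. In endothelium it fell from 122 to 71.8 CPM, with a ratio of 0.590 (0.543 to 0.642), while fibroblasts, with 0.992 (0.814 to 1.21), did not pass the threshold, nor did macrophages, with 0.698 (0.578 to 0.841). Over the alternatives the ratio ran from 0.569 to 1.06 in SGCs, from 0.510 to 1.49 in fibroblasts and from 0.519 to 1.10 in macrophages.

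Low levels of Cryab may hold free RNA of the suspension. Thinned to 1000 UMIs, 7.86% of control and 6.10% of DPN endothelial cells had a UMI of Cryab. In macrophages the shares were 8.09% and 8.68%, and in fibroblasts 9.005% and 5.18%. These cell types thus had like low shares, and their Cryab ratios, that of endothelium included, are not read as a change in those cells. In SGCs the shares were 47.2% and 35.3% and in smooth muscle 40.3% and 34.2%, above those of endothelium, macrophages and fibroblasts. Median depth was 5252 and 4214 UMIs in smooth muscle and 10376 and 8891 UMIs in endothelium.

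Cells of the libraries differed in depth and in mitochondrial share, and each gate was therefore divided by both. Over the 16 combinations of gate and depth class (1000 to 3000, 3000 to 10000 and at least 10000 UMIs) with at least 20 cells in each library, the Hspa1b ratio was under 1 in 15 and called as lower in 14. The exception was fibroblasts of 1000 to 3000 UMIs, at 1.21 (0.884 to 1.67). Over 14 combinations of gate and mitochondrial share (under 5%, 5% to 10% and 10% to 20%) it was under 1 in 14 and called in 13, and ranged from 0.422 to 0.688. Macrophages were too few outside the middle depth class, with ratios of 0.920 (0.673 to 1.27) over 11 control and 28 DPN cells and 1.12 (0.964 to 1.30) over 17 and 8. Their lower level thus rests on cells of 3000 to 10000 UMIs, where the ratio was 0.378 (0.352 to 0.406).

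Cryab was less even. Among SGCs with 10% to 20% mitochondrial UMIs, which made up 3919 of 4135 control and 2885 of 3012 DPN cells, its ratio was 0.622 (0.612 to 0.632). The 190 control and 105 DPN SGCs with 5% to 10% had 1.14 (1.05 to 1.23), and the 26 and 22 SGCs under 5% had 0.490 (0.378 to 0.629), so the ratio followed no order of mitochondrial share. Over the 14 combinations of gate and mitochondrial share the Cryab ratio was under 1 in 12 and called in 8. Median mitochondrial share of SGCs was 14.1% in control cells and 15.5% in DPN cells. In smooth muscle the ratio was 0.576 (0.530 to 0.627) at 5% to 10% and 0.606 (0.544 to 0.675) at 10% to 20%. The part of mitochondrial share in the SGC result was not tested beyond this division.

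**Figure D4:**
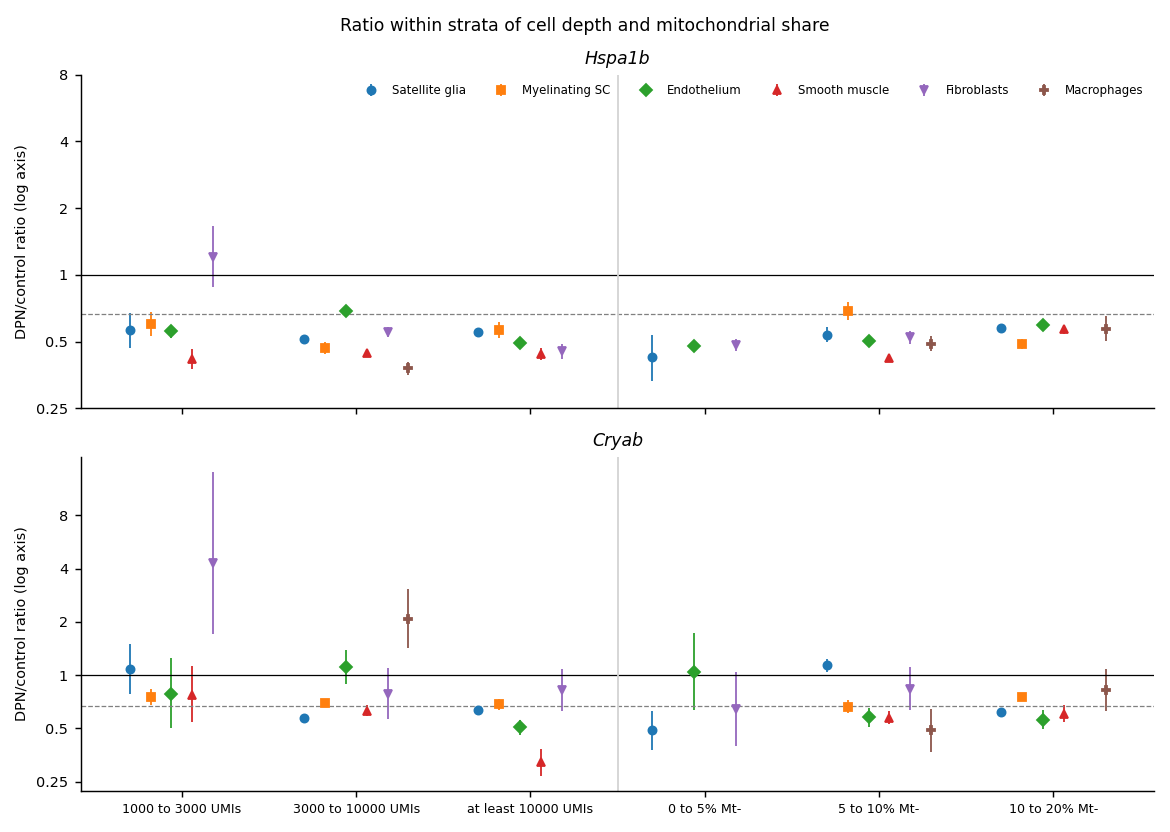
Ratio of Hspa1b (top) and Cryab (bottom), DPN over control, on a log axis within 3 classes of UMIs per cell and 3 classes of mitochondrial share, for combinations with at least 20 cells in each library. Points are gates with exact 95% counting intervals, and the dashed line marks 0.667. Hspa1b lies under 1 apart from shallow fibroblasts, while Cryab of SGCs lies at 0.490 in the lowest mitochondrial class, 1.14 in the middle and 0.622 in the highest.

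Genes of other chaperone systems were counted in the same way. Of the 31 co-chaperones and HSF1-linked genes with at least 200 UMIs in SGCs, 2 fell and 2 rose, beside 2.11% and 22.8% of all genes. The median log2 ratio of the 32 with at least 20 UMIs was 0.0046. Among those that fell, Dnajb5 went from 4.47 to 2.58 CPM, with a ratio of 0.577 (0.447 to 0.738). Dnaja4, a J-domain gene, rose from 4.21 to 11.3 CPM, with a ratio of 2.69 (2.28 to 3.17), and also in endothelium, with 2.23 (1.64 to 3.06). In myelinating SCs its ratio was 2.05 (1.11 to 3.91), from only 17 control and 34 DPN UMIs, under the minimum of 200 used for these counts. Hspa4l, an Hsp110 relative of Hsph1, rose in SGCs with 1.54 (1.41 to 1.68). In smooth muscle, with 23 such genes, 2 fell and 1 rose, beside 3.79% and 15% of all genes.

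None of the 8 subunit genes of the cytosolic chaperonin TRiC, which folds actin and tubulin, fell or rose in any gate, beside 2.11% to 5.74% of all genes that fell and 14.5% to 22.8% that rose. In SGCs they ran from Cct4, 0.831 (0.803 to 0.861), and Tcp1, 0.869 (0.834 to 0.905), to Cct6a, 1.06 (1.02 to 1.10), and Cct5, 1.07 (1.03 to 1.10). Among mitochondrial chaperones Hspa9, the mitochondrial Hsp70, rose in SGCs from 49.3 to 96.1 CPM, with a ratio of 1.95 (1.85 to 2.05). Hspe1, the Hsp10 that works with Hsp60, had 0.693 (0.648 to 0.741), while its partner Hspd1 had 1.03 (1.004 to 1.06) and Trap1 1.01 (0.908 to 1.12). In endothelium Hspe1 fell, with 0.572 (0.497 to 0.657).

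Most chaperones of the endoplasmic reticulum (ER) had ratios over 1, 13 of 14 in SGCs. Their median log2 ratio there was 0.54, against 0.15 over all genes tested. Of the 14 ER chaperones, 6 rose and none fell in SGCs, beside 22.8% and 2.11% of all genes. The Hsp70 of the ER, Hspa5, rose from 674 to 2041 CPM, with a ratio of 3.03 (2.99 to 3.07), and Hyou1, the ER relative of Hsph1, rose from 14.3 to 41.9 CPM, with a ratio of 2.94 (2.69 to 3.20). Calr, at 1.06 (1.04 to 1.07), and Sdf2l1, at 0.894 (0.837 to 0.955), did not pass the threshold. Hspa5 rose in 6 of 6 gates, and its ratio was 1.77 in endothelium, 1.83 in smooth muscle, 1.86 in myelinating SCs, 2.04 in macrophages and 2.19 in fibroblasts. The list as a whole was less even. Of ER chaperones with at least 200 UMIs, 2 of 14 rose in endothelium, beside 17% of all genes, and 4 had ratios under 1 there. In myelinating SCs 2 of 10 rose, beside 15.2%, and in smooth muscle 3 of 9, beside 15%. Fibroblasts had 3 of 11, beside 22.5%, and macrophages 4 of 8, beside 14.5%.

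Immediate early genes, which also respond to the handling of tissue, were measured beside the chaperones. Of 18 in SGCs, 9 rose and none fell, beside 22.8% and 2.11% of all genes, with a median log2 ratio of 0.67. Socs3, an inhibitor of cytokine signalling, rose from 18.4 to 73.4 CPM (interval of the ratio 3.72 to 4.30), and Klf2 rose with 2.32 (1.94 to 2.78). Atf3, which injured cells induce, was at 0.979 (0.968 to 0.990) and Nr4a1 at 1.13 (1.10 to 1.16). In endothelium 5 of 18 rose, beside 17% of all genes, in fibroblasts 8 of 16, beside 22.5%, and in smooth muscle 2 of 17, beside 15%. Their part in the heat shock result was not tested.

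**Figure D5:**
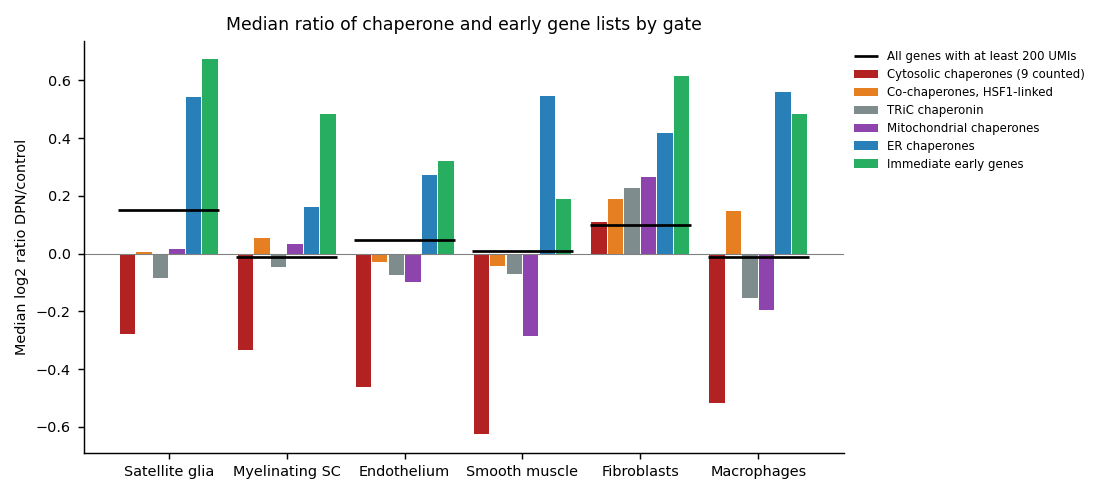
Median log2 ratio, DPN over control, of 6 gene lists in 6 gates (bars, list genes with at least 20 UMIs) and of all genes with at least 200 UMIs (black lines). The minimum thus differs between bars and lines. Over all genes with at least 20 UMIs the median was 0.157 in myelinating SC, beside 0.161 for ER chaperones. In smooth muscle it was 0.171, beside 0.189 for immediate early genes. The cytosolic chaperones stand lowest in SGCs (−0.28), myelinating SC (−0.33), endothelium (−0.46), smooth muscle (−0.63) and macrophages (−0.52), and the ER chaperones and immediate early genes stand above the line in all gates.

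Over the 12 sums of 6 gates in 2 libraries, the gene whose log2 level ran most like that of Hspa1b was Fam32a, with Pearson's r of 0.947 among 1142 genes counted in all gates. LOC100912618 (0.922), Uqcrh (0.916), Gstp1 (0.903) and the family member Bag3 (0.893) followed. For Cryab the genes most alike included the mitochondrial gene Mt-nd2 (0.931), Mpc1 (0.929), Cd9 (0.915) and Plekha4 (0.884). The 12 points share 2 libraries, and these values describe likeness of pattern only.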

How the data were processed

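Cell Ranger 3.1.0, with STAR as its aligner, was run by the authors, and the deposited values are raw UMI counts for each gene and barcode. Genome build and STAR version are not given in the sources used here. Down-sampling of reads is mentioned in the methods as an option, and its use is not stated. Counts of identifiers with the same symbol were added (147 symbols). The control library held 121101966 UMIs in 11011 barcodes and the DPN library 115409375 UMIs in 13168 barcodes. Gates needed summed markers of at least 12 per 10000 UMIs for satellite glia, 5 for myelinating Schwann cells, 10 for endothelium, 2 for smooth muscle, 5 for fibroblasts and 10 for macrophages. A cell in more than 1 gate was kept in each, and doublets were not called. UMIs were summed per gene, gate and library. All 95% intervals were exact: Poisson for levels, Clopper-Pearson for shares and, for ratios, the binomial conditional on the summed UMIs. A ratio needed 20 UMIs over both libraries, and the background of all genes 200. The genes, gates and lists were chosen with earlier results of these data known. Other genes named were the 2 highest and 2 lowest ratios of each list in satellite glia, and the 5 genes most like Hspa1b and Cryab by Pearson's r of log2(CPM + 1). Some genes that these rules name are not reported here. The procedure was tested on simulated independent Poisson counts, without spread between cells, rats or libraries, so that test covers the counting alone. Python 3.11.15, NumPy 2.4.6, SciPy 1.17.1 and pandas 2.3.3 were used.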

Additional observations from a re-analysis of the deposited data

How the results depend on the processing

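No paired analysis was possible because the conditions had single pooled libraries. Of 11 alternatives (cells of exactly 1 gate, marker thresholds doubled, a mitochondrial limit of 10%, genes of the mitochondrial genome without an Mt- symbol counted as mitochondrial, 4 MAD limits, cells thinned to 1000 UMIs, equal weight of cells, mitochondrial counts dropped from totals, median-ratio scaling, the 1% of cells highest in the family left out, and a minimum of 20 UMIs), 9 of the 15 falls were called in each. The minimum of 20 UMIs could not change a call of the 9 genes, which had at least 200 UMIs in every gate. It bears only on the numbers over all genes. The other 6 of the 15 falls lost the call in at least 1 alternative, and 1 of them changed direction there. Hspa1b lost it in myelinating SCs at 0.686 with the limit of 10%, and Cryab of endothelium at 0.750 after thinning and 0.779 with equal weight. In smooth muscle it was lost by Dnajb1 under 3 alternatives, Cryab (0.693 after thinning) and Bag3 (0.671 with the added mitochondrial genes), and in SGCs by Cryab at 0.773 with those genes. The limit of 10% turned Cryab of SGCs to 1.06 (0.976 to 1.14), with 190 control and 105 DPN cells between 5% and 10% and 26 and 22 below. Numbers of members that fell moved by more than 1.5 times as follows. In SGCs 1 fell with the limit of 10% and 1 with the added mitochondrial genes. In myelinating SCs 2 fell with cells of 1 gate and 2 with doubled thresholds, and 1 rose with the limit of 10%. In smooth muscle 3 fell with the added mitochondrial genes and 3 after thinning, and in fibroblasts 2 with doubled thresholds. In macrophages 5 fell with doubled thresholds, 5 with the limit of 10% and 6 after thinning, where 4.94%, 4.92% and 8.75% of all genes fell. The shares of all genes that fell beside the other counts were 6.76% and 1.98% in SGCs, 5.51% and 6.22% in myelinating SCs (8.41% rose with the limit of 10%), 3.48% and 6.18% in smooth muscle and 3.53% in fibroblasts. The numbers over all genes moved too (lowest and highest over the alternatives). In satellite glia 129 to 522 fell and 248 to 3652 rose, against 203 and 2188. In myelinating Schwann cells 39 to 392 fell and 38 to 1750 rose, against 161 and 425. In endothelium 74 to 587 fell and 197 to 2312 rose, against 306 and 1294. In smooth muscle 40 to 331 fell and 45 to 1900 rose, against 121 and 478. In fibroblasts 18 to 322 fell and 37 to 2055 rose, against 85 and 552. In macrophages 23 to 231 fell and 22 to 1210 rose, against 61 and 212. The causes were not tested. Depth limits macrophages and fibroblasts most, where Dnajb1, Cryab and Bag3 rest on 168 to 526 UMIs a library.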

Other observations

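Cells that passed the filters but no gate numbered 3821 (control) and 5283 (DPN) and were left out of the comparisons above. Hspa1b fell there too, from 3479.9 to 1311 CPM, with a ratio of 0.377 (0.373 to 0.380), lower than in any gate. Cryab fell from 1100.4 to 554 CPM, with a ratio of 0.504 (0.496 to 0.512), and Bag3 with 0.646 (0.624 to 0.668). Hsp90ab1 stood at 1.16 (1.15 to 1.17). These cells are a mixture, and their mix may differ between the libraries.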
